A study of Mus musculus with 12 samples.

Results

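*Foxd3* and 7 further genes of the step between naive and primed pluripotency were followed across 12 polyA+ RNA-seq libraries of mouse embryonic stem cells (ESC) in which *Srrm2*, a gene for a large splicing-associated protein of nuclear speckles, had been knocked down. The 8 genes, *Foxd3*, *Otx2*, *Pou3f1*, *Sox3*, *Sox4*, *Sall2*, *Lin28b* and *Grhl2*, were found by gene symbol among the 42450 genes listed, and all 8 passed the filter on low counts. They were chosen by name around *Foxd3* and the formative state, with their measured levels in these same libraries already known, so their values are given as a description. Calls of single genes come from fits over all genes and are no independent support, and the 8 were not tested as a set.

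The cells were wild-type cells of the male line E14tg2a.4. They were maintained on gelatin with leukemia inhibitory factor (LIF), a cytokine that keeps ESC self-renewing, and moved to serum-free ESGRO medium with LIF before collection. In 4 groups, cells received 50 nM of siRNA duplexes and were collected at 24 h or at 72 h. The duplexes targeted *Srrm2* in the Srrm2-KD groups, and in the Gl2-KD control groups the luciferase of fireflies, which mouse cells lack. Cells of the 72 h groups were transfected again with the same duplexes after the 24 h collection, so time after seeding, time in the serum-free medium and the number of transfections cannot be told apart. Each group held 3 libraries from 3 independent experiments, all from 1 cell line and with no untransfected cells.

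In textbook terms, naive ESC correspond to the epiblast before implantation and primed cells to the epiblast after it, and between them lies a formative state in which naive factors are shut off and the genome is prepared for lineage choice. OTX2 and POU3F1 (also called OCT6) bind enhancers together with POU5F1 during this step, FOXD3 is a forkhead factor that occupies enhancers as naive cells leave that state, and GRHL2 opens epithelial enhancers. SOX3 and SOX4 are HMG-box factors, SALL2 is a zinc-finger factor of the spalt family, and LIN28B binds the precursors of let-7 microRNAs and blocks their maturation.

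Library totals ran from 73933196 to 153343831 estimated counts, and the fewest counts behind any value of the 8 genes were 156, for *Sox3*. *Srrm2* itself stood at 911, 496 and 449 CPM (read counts scaled for library size and composition) in the 24 h Gl2-KD libraries of experiments 1, 2 and 3, and at 517, 154 and 199.8 CPM in those of Srrm2-KD. At 72 h the control libraries held 962, 479 and 442 CPM and the knockdown libraries 461, 182 and 217 CPM. In each of the 3 experiments the knockdown lowered the *Srrm2* level at both times, with 43.0% of the control level left at 24 h and 44.6% at 72 h, although the fit over all genes did not call it (edgeR adjusted p = 0.0663 and 0.0991). The summed CPM of 10 ESC markers was 4354 to 5229 in every library, led by *Pou5f1* at 1149 to 1956 CPM, and 9 of the 10 had means of at least 1 CPM. The exception was *Fut4*, a fucosyltransferase gene of the SSEA1 epitope, at 0.0678 to 0.264 CPM, and whether this lies in the cells or in the quantification was not tested. The markers *Neurog2* and *Fabp7* (neural), *Sox9* and *Pax3* (neural crest), *Mesp1* (primitive streak), and *Sox17* and *Foxa2* (primitive endoderm) had means below 0.1 CPM over the 12 libraries. Other markers of these lists were expressed. Means of at least 1 CPM were held by 4 of 10 neural, 3 of 8 neural crest, 2 of 7 primitive streak and 3 of 8 primitive endoderm markers. These are bulk libraries, so fewer cells expressing a gene and less RNA per cell cannot be told apart.

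The sequence shown for *Foxd3*, the only one of the 8 genes past the edgeR threshold (adjusted p of 0.05) over time in the fit of all 12 libraries, is the 250 bases before its annotated start at chr4:99656049-99656298 on the plus strand of GRCm38.p6 (RefSeq). It is shown with its single match to the 6 motifs searched, an E-box, in capitals.

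Foxd3 promoter: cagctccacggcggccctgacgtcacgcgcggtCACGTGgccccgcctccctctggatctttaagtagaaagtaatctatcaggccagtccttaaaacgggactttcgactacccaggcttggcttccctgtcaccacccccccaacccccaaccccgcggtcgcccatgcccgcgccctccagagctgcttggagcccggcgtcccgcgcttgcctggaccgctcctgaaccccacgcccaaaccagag

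The E-box CACGTG begins 217 bases before the *Foxd3* start, and 6.02% of 32851 mouse windows of the same length hold that motif. GC bases made up 65.6% of the *Foxd3* window against a median of 52.4% over all windows, and its CpG content was 0.85 of that expected from base composition against a median of 0.37. Windows were held for 5 of the 8 genes, *Foxd3*, *Otx2*, *Sox4*, *Sall2* and *Lin28b*, 9 windows in all. The octamer ATGCAAAT (in 1.60% of all windows), the forkhead motif TGTTTAC (3.17%), the SOX motif ACAAAG (16.5%) and the grainyhead motif AACCGGTT (0.116%) were found in none of the 9 on either strand. The OTX motif TAATCC (6.25% of all windows) was found in 1 of the 4 *Otx2* windows, 211 bases before the start, and the E-box in the *Lin28b* window, 49 bases before the start. These letters mark no measured binding.

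*Lin28b* is also a target of the microRNAs it blocks, and sequences of that loop are shown. The let-7 list read below was chosen from textbook knowledge and not by matches to these sequences. The 9 mature let-7 family members in RefSeq share the seed GAGGUAG (bases 2 to 8, in capitals), here in the a and g members.

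mmu-let-7a-5p: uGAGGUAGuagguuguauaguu

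mmu-let-7g-5p: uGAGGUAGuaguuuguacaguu

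In the longest GENCODE M21 transcript end of *Lin28b*, the 7-base complement of the seed occurs 4 times, 36, 2410, 2582 and 3998 bases after the stop codon. The site nearest the stop codon and the one farthest from it are given with the match in capitals.

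Lin28b site at 36: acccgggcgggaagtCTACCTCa

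Lin28b site at 3998: aaatgatggcaccgaCTACCTCt

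Of 21010 genes with an annotated 3′ end past the stop codon, 9.02% hold at least 1 such match and 0.0571% hold 4 or more. None of the other 7 genes described here holds one, whereas 8 of the 12 genes of the let-7 list do, *Hmga2*, *Igf2bp1* and *Trim71* with 4 each.

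Per kilobase of exon, the 8 genes covered a wide span of expression. *Otx2* had the highest mean over the 12 libraries, 25.2 CPM per kb, followed by *Foxd3* at 11.9, *Grhl2* at 6.74, *Sox4* at 4.51, *Lin28b* at 3.52, *Pou3f1* at 3.11, *Sall2* at 3.01 and *Sox3* at 1.30 CPM per kb. Only *Sox3* lay below the median of 1.73 CPM per kb over 19314 tested genes. Every pair of neighbours in this order overlapped in range over the 12 libraries, but *Grhl2* was above *Sox4*, and *Sall2* above *Sox3*, in 12 of 12 libraries. *Lin28b* exceeded *Pou3f1* in 7 of 12 libraries and *Pou3f1* exceeded *Sall2* in 6 of 12, so by this length these 3 genes kept no fixed order. With the length of the longest transcript in place of all exons, *Otx2* came to 41.0, *Grhl2* to 11.7 and *Lin28b* to 5.90 CPM per kb, and *Lin28b* then passed *Sox4*. *Pou3f1* stayed at 3.11 and *Sall2* came to 3.18 CPM per kb, so the place of *Lin28b* beside them depends on the length used.

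The relatives of these genes were at very different levels. *Foxd1*, *Foxd2*, *Foxd4*, *Otx1*, *Crx*, *Pou3f2*, *Pou3f3* and *Pou3f4* had means of 0.0602 CPM per kb or less, so *Foxd3*, *Otx2* and *Pou3f1* were the highest of their relatives measured here. By contrast, *Sox2* at 205 CPM per kb, *Sox12* at 22.5, *Sall4* at 46.0, *Sall1* at 35.5 and *Lin28a* at 120 CPM per kb were each above their relatives among the 8 genes. *Sox11* was at 3.40, *Sall3* at 0.757 and *Sox1* at 0.174 CPM per kb, and *Grhl3* at 6.24 and *Grhl1* at 2.02 CPM per kb beside *Grhl2*. An antisense RNA gene that overlaps the 5′ end of *Grhl2*, Gm16136, had 0.758 to 3.06 CPM, and the genes overlapping *Otx2* and *Pou3f1* on the opposite strand were below 1 CPM. The kit keeps strand, but no source used here says whether the pseudo-alignment used it.

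**Figure D1:**
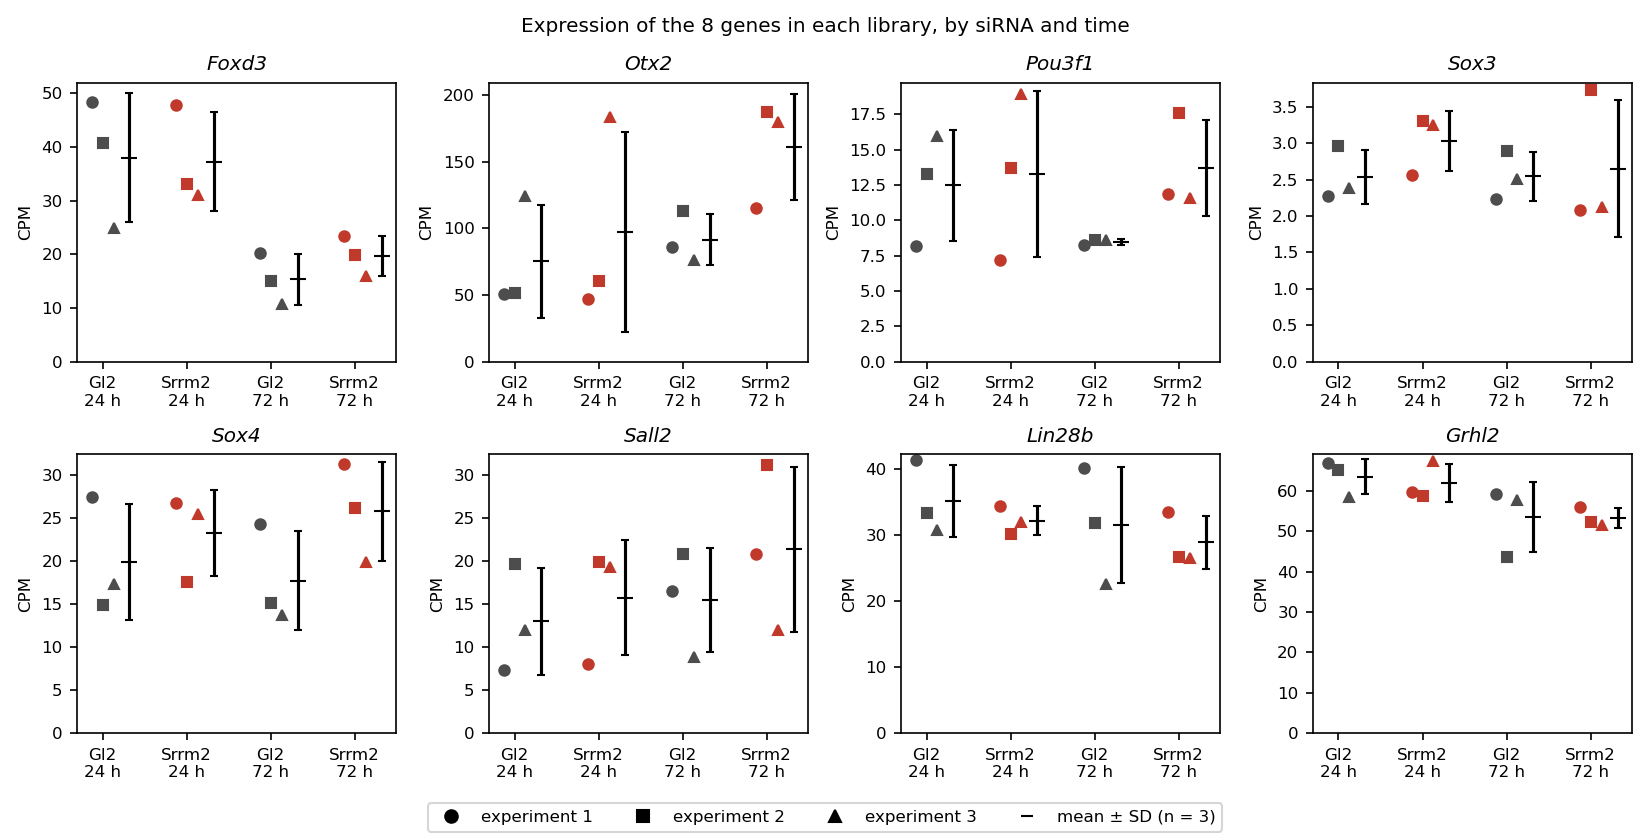
Level of each of the 8 genes (vertical axis, CPM, starting at 0) in the 12 libraries by siRNA and time (horizontal axis); circles, squares and triangles are experiments 1, 2 and 3, and bars are mean ± SD (n = 3). All 6 *Foxd3* values at 72 h, 10.7 to 23.4 CPM, sit below all 6 at 24 h, 24.8 to 48.4 CPM, whereas *Otx2* and *Pou3f1* at 72 h are higher in each Srrm2-KD library than in any Gl2-KD library.

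The question for time was how the levels of these genes differed in cells kept to 72 h, with control or *Srrm2* siRNA. *Foxd3* was lower at 72 h in every experiment and with either siRNA. In Gl2-KD cells it stood at 48.4, 40.8 and 24.8 CPM at 24 h and at 20.2, 15.04 and 10.7 CPM at 72 h. All 3 values at 72 h lay below all 3 at 24 h, a log2 fold change of -1.31 (SE 0.12), so 0.404 of the 24 h level was left. In Srrm2-KD cells it stood at 47.9, 33.0 and 31.0 CPM at 24 h and at 23.4, 19.9 and 15.9 CPM at 72 h. Here too the groups did not overlap, and the log2 fold change was -0.91 (SE 0.12), with 0.531 of the level left.

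*Foxd3* was called in each of these 2 comparisons (edgeR quasi-likelihood, Benjamini-Hochberg over 19410 genes) and the other 7 genes in neither. Over all genes 1.45% were called in Gl2-KD cells, 282 genes of which 145 were higher and 137 lower, and 0.551% in Srrm2-KD cells, 37 higher and 70 lower. The call in Srrm2-KD cells was lost in 10 of 15 fits that left out a library or an experiment, and that in Gl2-KD cells in 2 of 15, without the 72 h Gl2-KD library of experiment 2 and without experiment 2. Neither call was made in a fit without the experiments as a replicate block. Time held 70.7% of the sum of squares of *Foxd3* over the 12 libraries and experiment 22.4%, against medians of 6.12% and 54.2% over all tested genes. Experiment 1 had the highest and experiment 3 the lowest *Foxd3* level in each of the 4 groups, while differences between experiments in the time ratio held 0.0697% of the sum of squares.

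*Otx2*, the homeobox factor that directs the exit towards the primed state, was split by experiment. In Gl2-KD cells it stood at 50.6, 51.2 and 124 CPM at 24 h and at 85.6, 113 and 76.0 CPM at 72 h. Experiments 1 and 2 were higher at 72 h, by 0.76 and 1.14 on the log2 scale, and experiment 3 was lower, at -0.71, with a 24 h library that stood above the other two. In Srrm2-KD cells *Otx2* stood at 47.3, 60.3 and 184 CPM at 24 h and at 115, 187 and 180 CPM at 72 h, again with the high 24 h value in experiment 3. The fitted log2 fold changes were 0.47 (SE 0.36) in Gl2-KD and 0.91 (SE 0.36) in Srrm2-KD, neither called, and without experiment 3 *Otx2* was called in Srrm2-KD.

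*Pou3f1* and *Sall2* also differed between experiments, in patterns of their own. *Pou3f1* stood at 8.17, 13.3 and 15.9 CPM at 24 h and at 8.25, 8.63 and 8.62 CPM at 72 h in Gl2-KD cells, so that the 3 experiments differed at 24 h and were level at 72 h. Its log2 ratios over time were 0.01, -0.63 and -0.89 in experiments 1, 2 and 3 with Gl2 siRNA and 0.72, 0.37 and -0.71 with *Srrm2* siRNA, and the fitted values were -0.49 (SE 0.25) and 0.12 (SE 0.25). *Sall2* stood at 7.27, 19.6 and 11.98 CPM at 24 h and at 16.5, 20.8 and 8.88 CPM at 72 h in the same cells. The log2 ratio of *Sall2* over time was 1.19, 0.08 and -0.43 in experiments 1, 2 and 3 with Gl2 siRNA and 1.38, 0.65 and -0.69 with *Srrm2* siRNA. In experiment 3 *Otx2*, *Pou3f1* and *Sall2* were thus all lower at 72 h with either siRNA, *Otx2* in Srrm2-KD by 0.03 only. The share of the sum of squares held by differences in time between experiments was 27.7% for *Otx2*, 27.4% for *Pou3f1* and 35.6% for *Sall2*, against a median of 9.54% over all tested genes. The labels give only the number of the experiment. The RNA processing day that the study used as a covariate is in none of the sources used here. The parts of culture and processing day in the differences between experiments therefore cannot be told apart.

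**Figure D2:**
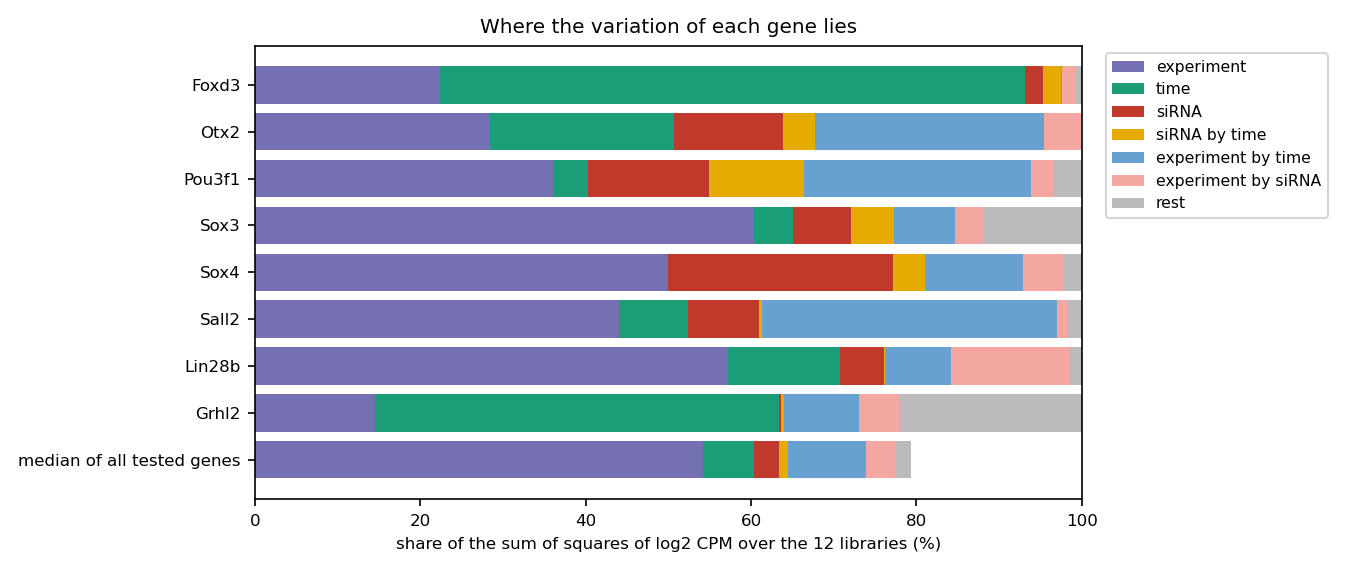
Share of the sum of squares of log2 CPM over the 12 libraries (horizontal axis, %) held by experiment, time, siRNA and their combinations for each of the 8 genes, with the median of each share over all tested genes in the bottom bar, whose medians, taken one by one, need not add up to the full width. Time takes 70.7% for *Foxd3* and 48.9% for *Grhl2*, siRNA 27.2% for *Sox4*, and experiment by time 35.6% for *Sall2*.

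*Grhl2*, *Lin28b*, *Sox4* and *Sox3* differed less with time. *Grhl2* stood at 66.8, 65.2 and 58.6 CPM at 24 h and at 59.3, 43.6 and 57.7 CPM at 72 h in Gl2-KD cells, and at 59.8, 58.6 and 67.4 against 56.1, 52.2 and 51.6 CPM in Srrm2-KD cells. It was lower at 72 h in 3 of 3 experiments with each siRNA, with log2 fold changes of -0.26 (SE 0.12) and -0.22 (SE 0.12), and without overlap in Srrm2-KD. *Lin28b* was also lower in 3 of 3 experiments with each siRNA, at -0.17 (SE 0.13) in both. Together with *Foxd3*, 3 of the 8 genes were lower in 3 of 3 experiments in each comparison, where 16.2% (Gl2-KD) and 16.6% (Srrm2-KD) of all genes were. All 72 h libraries lay below all 24 h libraries for 1 of the 8 in Gl2-KD (3.36% of all genes) and for 2 of the 8 in Srrm2-KD (3.90%). The time ratios of *Sox4* were -0.16 (SE 0.17) and 0.14 (SE 0.17), and those of *Sox3* 0.01 (SE 0.20) and -0.23 (SE 0.20), in Gl2-KD and Srrm2-KD.

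The ratio of the 2 most expressed factors was also read in each library. At 24 h *Otx2* per kb was 0.576 to 2.75 times *Foxd3* in Gl2-KD, above it in 1 of 3 libraries, and 0.543 to 3.27 times in Srrm2-KD, above it in 2 of 3. At 72 h it was 2.34 to 4.12 times *Foxd3* in Gl2-KD and 2.71 to 6.22 times in Srrm2-KD, above it in all 6 libraries. These ratios use the length of all exons. By the longest transcript the mean of *Otx2* was 41.0 in place of 25.2 CPM per kb, and *Foxd3* stayed at 11.9. All ratios are higher by that length, so the counts of libraries at 24 h depend on it.

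The question for knockdown was whether these genes differed when the *Srrm2* RNA was lowered, and at which time. At 24 h the 8 genes differed little, with log2 fold changes from -0.11 to 0.33 and a median of 0.16, against 0.01 over all genes tested. *Foxd3* was level at -0.00 (SE 0.12), with within-experiment ratios of -0.02, -0.31 and 0.32. *Sox3* and *Sall2* were higher in Srrm2-KD in 3 of 3 experiments, as were 17.3% of all genes. *Sox3*, an early neural and epiblast factor, stood at 2.27, 2.96 and 2.38 CPM in Gl2-KD and at 2.56, 3.30 and 3.25 CPM in Srrm2-KD, ranges that overlap.

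At 72 h, 7 of the 8 log2 fold changes lay above 0, from -0.11 for *Lin28b* to 0.73 for *Otx2*, with a median of 0.42 against -0.02 over all genes tested. *Foxd3*, *Otx2*, *Pou3f1*, *Sox4* and *Sall2* were higher in Srrm2-KD in 3 of 3 experiments, as were 18.8% of all genes. Only *Otx2* and *Pou3f1* had every Srrm2-KD library above every Gl2-KD library, as did 2.99% of all genes. None of the 8 was called at 24 h or at 72 h in the fit of all 12 libraries, nor was any other gene. In that fit edgeR called 0.0% of 19410 genes at each time, with 508 and 2498 genes at an unadjusted p under 0.05. The paper's own edgeR fit did call genes with knockdown, *Srrm2* alone at 24 h and a set that included *Srrm2* and *Foxd3* at 72 h. Its model adjusted for the day of RNA processing, whereas experiment was the block here. The absence of calls therefore holds for the fit used here, and why the calls differ was not tested. DESeq2 called 25 genes at 24 h and 542 at 72 h, *Sox4* among the latter and no other of the 8, and limma with voom called 2 and 4 genes, none of them among the 8.

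*Otx2* stood at 85.6, 113 and 76.0 CPM in Gl2-KD and at 115, 187 and 180 CPM in Srrm2-KD at 72 h, which gave a fitted log2 difference of 0.73 (SE 0.35). The within-experiment ratios were 0.43, 0.73 and 1.24, so experiment 3 was farthest apart. *Pou3f1* stood at 8.25, 8.63 and 8.62 CPM in Gl2-KD and at 11.9, 17.6 and 11.6 CPM in Srrm2-KD, a log2 fold change of 0.67 (SE 0.25). The control values of *Pou3f1* were nearly equal, with an SD of 0.214 CPM (n = 3) around 8.50 CPM, and the knockdown values spread more, at 13.7 ± 3.40 CPM (SD, n = 3).

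*Sox4*, a SOX factor of progenitor cells in many tissues, stood at 24.3, 15.1 and 13.7 CPM in Gl2-KD and at 31.2, 26.1 and 19.8 CPM in Srrm2-KD. The groups overlapped because experiment 1 was high with either siRNA, and the log2 fold change was 0.57 (SE 0.17). *Sall2* stood at 16.5, 20.8 and 8.88 CPM in Gl2-KD and at 20.8, 31.2 and 11.98 CPM in Srrm2-KD, a log2 fold change of 0.44 (SE 0.34) with overlap. *Foxd3* stood at 20.2, 15.04 and 10.7 CPM in Gl2-KD and at 23.4, 19.9 and 15.9 CPM in Srrm2-KD, a log2 fold change of 0.39 (SE 0.12). Its within-experiment ratios were 0.21, 0.40 and 0.57, and the groups overlapped. A fit of the 72 h libraries alone called *Otx2* and *Sox4* among 323 genes (1.78%), and a fit with 6 blocks, 1 for each pairing of experiment and time, called *Otx2*, *Pou3f1* and *Sox4* among 724 genes (3.73%).

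*Lin28b*, *Grhl2* and *Sox3* did not share this direction in all experiments. *Lin28b* stood at 40.1, 31.8 and 22.6 CPM in Gl2-KD and at 33.5, 26.6 and 26.5 CPM in Srrm2-KD at 72 h, which gave -0.11 (SE 0.13) on the log2 scale, with experiment 3 opposed to the others. *Grhl2* was level at 0.00 (SE 0.11), and *Sox3* at 0.02 (SE 0.20) with ratios of -0.10, 0.37 and -0.24.

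**Figure D3:**
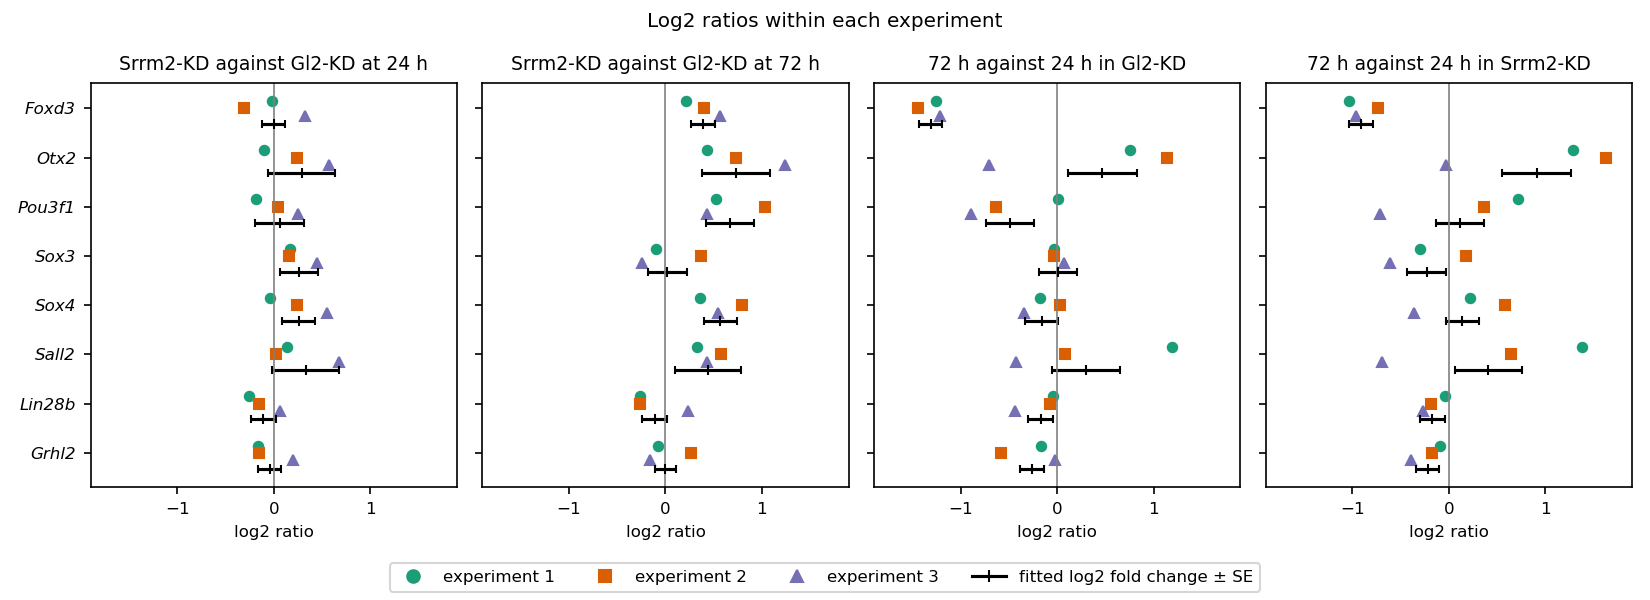
Log2 ratio of each of the 8 genes within experiments 1, 2 and 3 (coloured points) and fitted log2 fold change ± SE (black bars) in the 4 comparisons; the vertical line marks no difference. For Srrm2-KD against Gl2-KD at 72 h all points of *Foxd3*, *Otx2*, *Pou3f1*, *Sox4* and *Sall2* lie to the right of 0, and for time the experiment 3 triangles of *Otx2*, *Pou3f1* and *Sall2* lie to the left.

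The knockdown difference at 72 h minus that at 24 h was above 0 for 7 of the 8 genes, with a median of 0.21 against -0.02 over all genes tested. It was 0.61 (SE 0.35) for *Pou3f1*, 0.45 (SE 0.49) for *Otx2*, 0.40 (SE 0.17) for *Foxd3* and 0.31 (SE 0.24) for *Sox4*, and -0.24 (SE 0.28) for *Sox3*. edgeR called none of the 8 and 0.0% of all genes, with 319 at an unadjusted p under 0.05. DESeq2 called 2 genes and limma with voom 0. Within experiments 1, 2 and 3 the value was 0.53, 0.50 and 0.68 for *Otx2*, 0.23, 0.71 and 0.25 for *Foxd3*, and 0.71, 0.99 and 0.18 for *Pou3f1*. For the other genes it was not above 0 in all 3 experiments. The fit with blocks for experiment and time was not run for this difference. For the 8 genes no change of the knockdown difference between the times was called, which does not show its absence.

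Further genes of the formative state were then read beside these 8, from a list of 20. At 72 h, 17 of the 20 lay above 0 in Srrm2-KD and 3 below, with a median log2 fold change of 0.22 against -0.02 over all genes, and none was called. The lowest p belonged to *Dnmt3a*, a de novo DNA methyltransferase, at 96.3 ± 16.5 CPM in Gl2-KD and 172.6 ± 27.7 CPM in Srrm2-KD (SD, n = 3), a log2 fold change of 0.84 (SE 0.19, edgeR adjusted p = 0.144). *Sox11*, a relative of *Sox4*, followed at 0.37 (SE 0.14, edgeR adjusted p = 0.322). At 24 h, 12 of the 20 lay above 0 and 8 below, with a median of 0.04. With time, 17 of the 20 lay below 0 in Gl2-KD and 16 in Srrm2-KD, with medians of -0.34 and -0.16. *Cdh2*, the gene of N-cadherin, fell by 1.19 on the log2 scale in Gl2-KD (SE 0.26, edgeR adjusted p = 0.0498) and *Tcf15*, a bHLH factor of primed-prone cells, by 0.68 (SE 0.11, edgeR adjusted p = 0.0245), while none of the 20 was called in Srrm2-KD. The median of this list with time was thus negative, as were the *Foxd3* ratios of all 3 experiments, whereas the *Otx2* ratios were positive in experiments 1 and 2 and negative in experiment 3.

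Of 16 naive pluripotency genes, 13 lay below 0 and 3 above in Srrm2-KD at 72 h, with a median of -0.19 and none called. *Tbx3*, a T-box factor of naive cells, was at -0.74 (SE 0.21, edgeR adjusted p = 0.201) and *Tfcp2l1*, a naive network factor, at -0.44 (SE 0.13, edgeR adjusted p = 0.206). At 24 h 13 also lay below 0, with a median of -0.08. With time in Gl2-KD, *Gbx2* fell by 1.01 (SE 0.19, edgeR adjusted p = 0.0321) and *Nr0b1* by 0.62 (SE 0.10, edgeR adjusted p = 0.0214), both on the log2 scale, and in Srrm2-KD *Nr5a2*, an orphan nuclear receptor, fell by 0.69 (SE 0.12, edgeR adjusted p = 0.0467). The other genes of the list were not called, 14 in Gl2-KD and 15 in Srrm2-KD. With time, then, called genes of the naive list and of the formative list moved the same way as *Foxd3*.

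**Figure D4:**
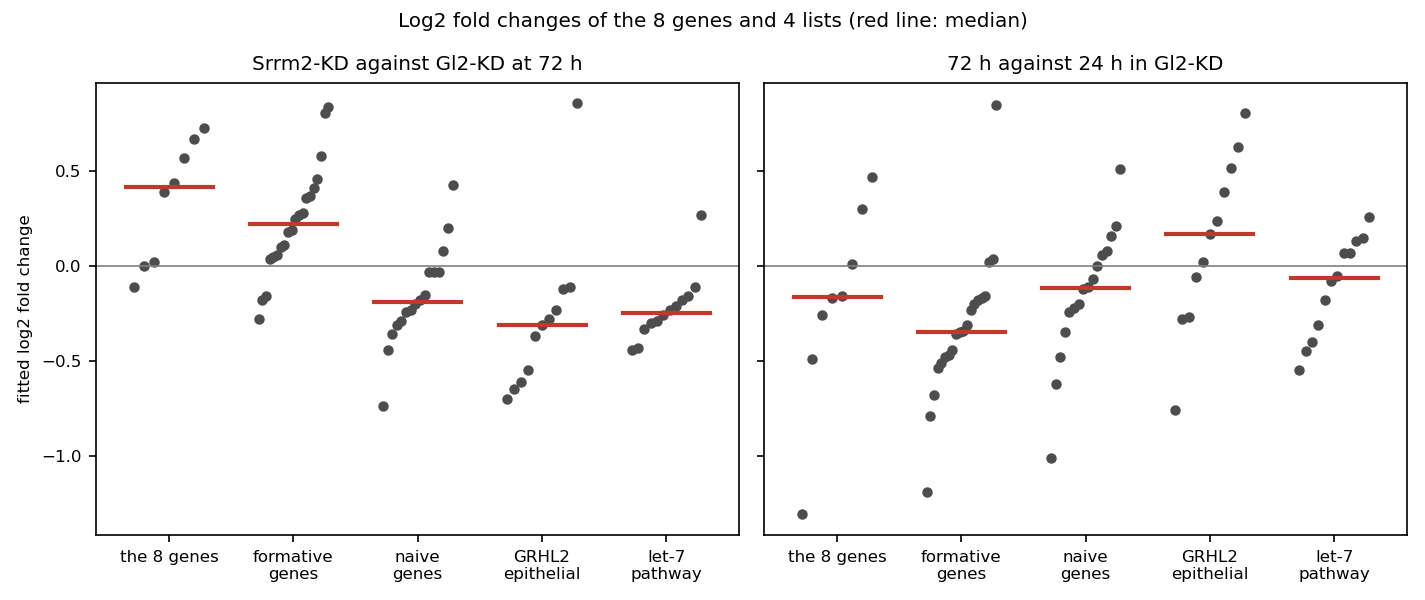
Fitted log2 fold change (vertical axis) of the 8 genes, 20 formative genes, 16 naive genes, 11 GRHL2-linked epithelial genes and 12 let-7 pathway genes (1 point per gene, red line at the median) for the knockdown comparison at 72 h and for the time comparison in Gl2-KD. In the left panel the medians of the 8 genes and the formative genes are 0.42 and 0.22, and those of the other lists -0.19, -0.31 and -0.25.

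Epithelial genes linked to GRHL2 were read beside *Grhl2*, whose own difference with knockdown at 72 h was 0.00. Of 11 genes, 10 lay below 0 in Srrm2-KD at 72 h, with a median of -0.31 and none called. *Cldn7* was at -0.65 (SE 0.20, edgeR adjusted p = 0.226) and *Prss8*, a membrane serine protease, at -0.70 (SE 0.21, edgeR adjusted p = 0.233). The gene above 0 was *Epcam*, at mean levels of 0.105 CPM in Gl2-KD and 0.160 CPM in Srrm2-KD and with an SE of 1.66. Whether so low a level lies in the cells or in the quantification was not tested. With time in Gl2-KD, where *Grhl2* was lower, 7 of the 11 lay above 0, with a median of 0.17 and none called.

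Of the 12 let-7 pathway genes, which include *Lin28a*, the uridylyl transferase genes *Tut4* and *Tut7* and known let-7 targets, 11 lay below 0 in Srrm2-KD at 72 h. The median was -0.25, beside -0.11 for *Lin28b*, and none was called. *Igf2bp3*, a gene for an RNA-binding protein with 1 seed match, stood at 109.3 ± 13.0 CPM in Gl2-KD and 80.6 ± 9.09 CPM in Srrm2-KD (SD, n = 3), at -0.44 (SE 0.09, edgeR adjusted p = 0.124). *Igf2bp2* was at -0.43 (SE 0.17, edgeR adjusted p = 0.325). Mature let-7 is not captured by polyA+ libraries.

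Of the 18 relatives, 16 passed the filter on low counts, and 14 of these lay below 0 in Srrm2-KD at 72 h, with a median of -0.23 and none called. *Sall1* was at -0.28 (SE 0.11, edgeR adjusted p = 0.316) where *Sall2* was at 0.44, and *Sox1*, with a mean of 1.14 CPM in Gl2-KD and 0.597 CPM in Srrm2-KD, at -1.12 (SE 0.43, edgeR adjusted p = 0.319). With time, *Sall3* fell by 2.04 on the log2 scale in Gl2-KD (SE 0.42, edgeR adjusted p = 0.0425), from a mean of 9.83 CPM to 2.52 CPM, the single called relative. Markers of other cell types were not called with knockdown, and with time 1 was, *Map2*, a neuronal microtubule gene, which fell by 0.93 on the log2 scale in Srrm2-KD (SE 0.17, edgeR adjusted p = 0.0467).

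Summed neural markers were 83.8 to 110.7 CPM in Srrm2-KD and 89.7 to 126.2 CPM in Gl2-KD at 72 h, and primitive endoderm markers 19.2 to 38.9 and 35.9 to 51.8 CPM. The endoderm sum was mostly *Lama1*, at 15.6 to 62.8 CPM over the 12 libraries, where the next highest marker, *Sox7*, reached 1.94 CPM at most. With knockdown at 72 h, 4 of these 8 markers lay above 0 and 4 below, *Lama1* at -0.69 (SE 0.22), so the sum does not describe the list. Both pairs of ranges overlapped, and whether cells with these markers have a part in the values of *Otx2*, *Pou3f1* and *Sox4* was not tested. Neural crest markers summed to 4.86 to 6.97 CPM and primitive streak markers to 4.05 to 8.87 CPM over all libraries.

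The genes whose profiles were most like each of the 8 were found by Pearson's r of log2 CPM over the 12 libraries, with experiment means subtracted, among 12870 genes with a mean of at least 1 CPM. The closest to *Foxd3* were *Id3*, an inhibitor of bHLH factors (r = 0.985), and *Smyd1* (r = 0.983). *Otx2* was closest to *Metap1d* and *Rabggtb* (r = 0.981 and 0.978), *Pou3f1* to *Lamtor4* and *Mrps18b* (0.968 and 0.958), *Sox4* to *Armcx1* and *Zfp110* (0.973 and 0.967) and *Sall2* to *Adat1* and B130055M24Rik (0.973 and 0.969). *Lin28b* was closest to *Fem1c* and *Kif2a* (0.975 and 0.970), *Grhl2* to *Rsc1a1* and *Jtb* (0.931 and 0.913), and *Sox3* to Gm11837 and *Usmg5* (0.922 and 0.866). Without subtracting experiment means only *Sox4* kept any of its 2 genes, 1 of them, in a ranking that did not leave out the 8 genes themselves. The r of the same pairs then ran from -0.0255 (*Grhl2* and *Jtb*) to 0.966 (*Foxd3* and *Smyd1*). These r values describe 12 libraries that share 3 experiments.

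Among the 8 genes themselves, the highest r were between *Otx2* and *Sall2* (0.809), *Pou3f1* and *Sox4* (0.779), *Foxd3* and *Grhl2* (0.766) and *Otx2* and *Sox4* (0.726). *Foxd3* and *Otx2* were at -0.400. Over these libraries the 8 genes thus formed no single block. Time held the largest share for *Foxd3* and *Grhl2*, and the time ratios of *Otx2*, *Pou3f1* and *Sall2* were not of 1 sign over the experiments. *Sox4* had the largest siRNA share of the 8 (27.2%, against a median of 3.08% over all tested genes), below its own experiment share of 49.9%. *Sox3* and *Lin28b* had the largest experiment shares (60.3% and 57.2%), near the median of 54.2% over all tested genes.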

How the data were processed

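The authors pseudo-aligned 100-bp paired-end reads of the 12 polyA+ libraries to the GENCODE M24 mouse transcriptome with Kallisto 0.46.1 (mm10 per the labels) and deposited estimated counts per gene, not scaled for library size, of which 33.8% to 43.0% per library were not whole. How transcripts were summed per gene and whether strand was used are not given in the sources used here. Gene identifiers were matched to GENCODE M21 (42156 of 42450), and the 294 without a match held 0.175% of counts.

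Estimated counts were rounded, filtered (edgeR filterByExpr, minimum count 10, minimum total 15, 19410 genes left), scaled by TMM and fitted over all 12 libraries with edgeR 4.0.16 (R 4.3.3; glmQLFit, glmQLFTest; group plus experiment; Benjamini-Hochberg over all genes tested, threshold 0.05). Levels are TMM-scaled CPM, and SE is that of the fitted log2 fold change. The experiment block was kept because deviations from group means correlated at 0.281 to 0.747 in 18 pairs of libraries from the same experiment and at -0.628 to 0.231 in 36 pairs from different ones. The fits were also run on simulated data. These had the same spread setting for every gene and no differences between experiments in the time ratio. That run therefore does not show how the fits treat such differences. Alternatives used DESeq2 1.42.0 and limma 3.58.1 with voom, other scalings, filters and blocks, and left out each library and experiment. The members and lists were chosen with earlier results of these data known. In each list up to 4 called genes by size are named, or up to 2 by lowest p where none was called, and for each of the 8 genes the 2 most correlated. Promoter and microRNA sequences came from RefSeq (GRCm38.p6 for promoters), and protein sequences were not used here. The level of a neural marker is not reported here.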

Additional observations from a re-analysis of the deposited data

How the results depend on the processing

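The experiments paired the libraries, and without a replicate block edgeR called 0 of the 8 genes, 0 of 20 formative genes and 0 of 16 naive genes in each comparison over time. For Srrm2-KD against Gl2-KD at 72 h, where the values reported are 0, DESeq2 called 1 of the 8 genes, 1 formative gene and 1 naive gene. A fit of only the groups compared, with experiment as replicate block, called 2, 2 and 1, and a replicate block for each experiment and time called 3, 2 and 2. For 72 h against 24 h in Gl2-KD, formative genes called were 1 with RLE size factors, 7 with DESeq2 and 0 in the fit of only the groups compared, against 2, and naive genes called were 4 with DESeq2, against 2. For 72 h against 24 h in Srrm2-KD, the fit of only the groups compared called 0 of the 8 genes, against 1 (*Foxd3*), and 0 naive genes, against 1. There DESeq2 called 4 formative genes, against 0, and naive genes called were 3 with DESeq2 and without a filter on low counts, and 2 with library totals only, limma with voom, legacy=FALSE and at least 10 counts in every library. Leaving out 1 library or experiment, the counts of the 8 genes called over time ranged from 0 to 1 in Gl2-KD and from 0 to 2 in Srrm2-KD. The same counts ranged from 0 to 2 and from 0 to 1 for formative genes, from 0 to 3 and from 0 to 1 for naive genes, and from 0 to 1 for formative genes with knockdown at 72 h. None of the 8 was then called with knockdown at 24 h or 72 h.

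Of 968 log2 fold changes of the 8 genes under alternatives, 946 moved by no more than the SD between experiments. Where that SD is wide, a value can change sign and still count among the 946. Over time *Sall2* ran from -0.16 to 0.63 in Gl2-KD (SD 0.83), and *Pou3f1* from -0.15 to 0.53 in Srrm2-KD (SD 0.74). With knockdown at 72 h all 25 alternatives stayed above 0 for *Foxd3* (0.31 to 0.48), *Otx2* (0.34 to 0.98), *Pou3f1* (0.48 to 0.92), *Sox4* (0.36 to 0.68) and *Sall2* (0.13 to 0.84). At 24 h *Otx2* was at -0.28, *Pou3f1* at -0.25 and *Sall2* at -0.20 without the Srrm2-KD library of experiment 3. *Foxd3* over time stayed within -1.42 to -1.21 in Gl2-KD and -1.03 to -0.82 in Srrm2-KD. *Cdh2*, *Tcf15*, *Gbx2*, *Nr0b1*, *Sall3*, *Nr5a2* and *Map2* kept their direction but lost their call in 83 of 168 alternatives together, and *Srrm2* was called in 17 of 50. The cause of these shifts was not tested.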
